A study of Mus musculus with 22 samples.

Results

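Receptors for glutamate, GABA and glycine carry most fast signalling between neurons, and the subunits from which they are built set their speed, ion selectivity and drug sensitivity. Values of 37 such genes, taken by symbol from a list, were read from gene tables of 24911 genes: 15 ionotropic glutamate receptor genes, 6 metabotropic glutamate receptor genes, 10 GABA-A and 2 GABA-B receptor genes and 4 glycine receptor genes. All 37 were present in the tables. The list does not hold every subunit of these families, so each share given below is a share of the listed genes only.

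Poly(A) RNA of mouse cells and tissues was sequenced in 22 libraries, and every group has a single library. The 3 brain libraries are labelled medulla oblongata (the hindbrain region that runs into the spinal cord), putamen (in the mouse a part of the striatum, filled mainly with GABA-releasing projection neurons) and sensorimotor cortex. The labels give no strain, age, sex, treatment or number of animals for them. The 19 non-brain libraries were basophils, 9 of CD4 T cells (Tfh, non-Tfh, Tfr and CD4+, each with a second library marked Mut or MUT whose mutation is not named, and ConA-activated CD4+ cells), 7 of primary B cells, stated to come from C57BL/6J spleen (splenic, and activated with aBCD180, aCD40+IL4, LPS+a-d-dextran, LPS+IL21, LPS+IL4 or LPS alone), the B lymphoma line CH12 (clone bc5), and back skin. Total expected counts were 46.3 M in medulla, 43.0 M in putamen and 52.5 M in cortex, within a range of 30.8 to 147.9 M over the series. Levels are the authors' TPM, which is per transcript length and so can be compared between genes.

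With 1 library per region the differences between regions have no replicate check and no p-value. A gene was called higher or lower when log2(TPM + 1) differed by at least 1 with at least 5 TPM on the higher side, and intervals in brackets are 95% exact intervals of counting error, which leave out the spread between animals. The labels name no molecular identifiers, so reads may not be independent molecules. In bulk tissue, fewer cells of a type and less RNA per cell cannot be told apart.

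Each region held the highest sum of its own markers. The summed level of 6 hindbrain genes was 356 TPM in medulla, 8.9 TPM in putamen and 0.2 TPM in cortex, that of 6 striatal projection neuron genes was 121 TPM in medulla, 6423 TPM in putamen and 517 TPM in cortex, and that of 5 cortical excitatory neuron genes was 86.9, 125 and 1554 TPM in medulla, putamen and cortex. Markers of other cell types differed too: the sum of 5 oligodendrocyte genes was 28229 TPM in medulla, 8318 TPM in putamen and 6276 TPM in cortex, that of 5 astrocyte genes 2985, 782 and 849 TPM, and that of 7 pan-neuronal genes 5770, 2818 and 6824 TPM, in the same order. Within a list the genes did not all move alike. The astrocyte sum in medulla was mostly Gfap (2139 TPM), while Slc1a3 was at 196 TPM in medulla, 356 TPM in putamen and 382 TPM in cortex. Of the pan-neuronal genes Syt1 (146, 366 and 829 TPM) and Rbfox3 (123, 239 and 353 TPM) were lower in medulla than in putamen. Their part in the differences below was not tested. The Y-linked Ddx3y was at 57.5 TPM in medulla, 42.2 TPM in putamen and 0.09 TPM in cortex, so for the X-linked Gria3, Gabra3 and Glra2 a difference of either region from cortex cannot be told apart from this difference in sex-linked RNA.

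Of the 37 genes 35 reached 1 TPM in every brain library, Glra1 and Gabra6 being the exceptions, and 28 reached 5 TPM. Summed over the members, receptor RNA was 1931 TPM in medulla, 2655 TPM in putamen and 2807 TPM in cortex. Medulla had less ionotropic glutamate receptor RNA (707 TPM, against 1218 TPM in putamen and 1217 TPM in cortex) and more glycine receptor RNA (383 TPM, against 141 TPM in putamen and 217 TPM in cortex). Both orders for medulla were the same after TMM scaling and after scaling to pan-neuronal genes, whereas the pan-neuronal scaling turned round putamen and cortex for glycine receptors (253.5 scaled TPM in putamen and 137.3 in cortex). GABA-A members summed to 363 TPM in medulla, 571 TPM in putamen and 564 TPM in cortex. Gabbr1 and Grin1, the obligatory subunits of GABA-B and NMDA receptors, were the 2 most abundant members in putamen and cortex, and Gabbr1 and Glrb, the anchoring subunit of glycine receptors, were those in medulla.

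**Figure D1:**
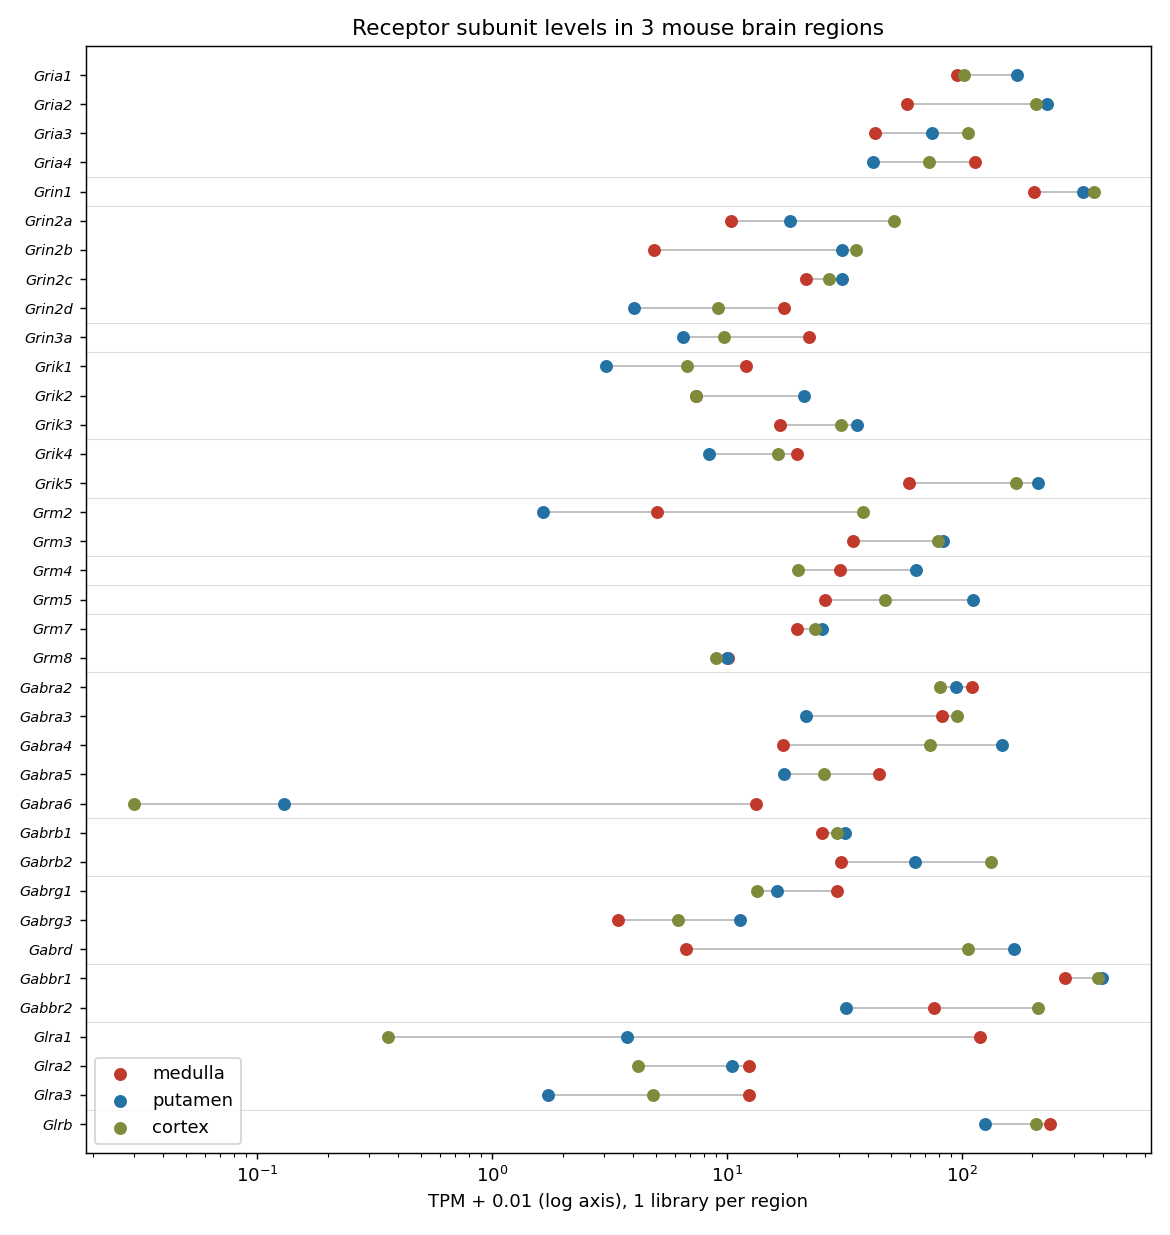
Level of each of the 37 receptor subunit genes, as TPM + 0.01 on a log axis, in medulla (red), putamen (blue) and cortex (green), 1 library each; grey lines join the lowest and highest region. Glra1 and Gabra6 span the widest ranges, with medulla at the high end, while Grm7, Grm8 and Gabrb1 hardly spread, and the medulla and cortex points of Grik2 coincide.

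Between medulla and cortex 6 members were higher in medulla and 11 lower, of 37 that reached 5 TPM in either library. Over all genes the same rule called 8.8% higher and 8.52% lower, and the median difference in log2(TPM + 1) was -0.21 for the members and 0.04 for all genes. Between putamen and cortex 5 members were higher in putamen and 6 lower, of 34 that reached the minimum, against 6.47% higher and 6.59% lower over all genes. Between medulla and putamen 12 members were higher in medulla and 12 lower, of 37, against 10.5% and 9.71% over all genes. Each library serves in a pair of these comparisons, so their counts are not independent. Scaling to the pan-neuronal genes moved the median of all genes by 0.45, 1.45 and -1.01 (log2; medulla over cortex, putamen over cortex, medulla over putamen), and TMM scaling by -0.17, -0.13 and -0.04. Under the pan-neuronal scaling 22 members were higher in putamen than in cortex, against 83.4% of all genes, and 20 were lower in medulla than in putamen, against 48.0% of all genes, so directions below are relative to TPM as deposited.

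Glycine receptors are chloride channels known for inhibition in spinal cord and brainstem, and the regions differed in which of their alpha subunits was most abundant. Glra1, which encodes the alpha subunit of the adult spinal receptor and lies on chromosome 11 (55514239 to 55608198, minus strand, mm10), was at 120 TPM in medulla (117 to 123), 3.76 TPM in putamen (3.20 to 4.39) and 0.35 TPM in cortex (0.204 to 0.56). That is 31.9-fold more in medulla than in putamen (27.3 to 37.6) and 343-fold more than in cortex (214 to 589), a ratio that rests on 17 reads in cortex. An antisense gene shares 5.84% of its exonic bases, and strand of counting is not stated. Glra3 was at 12.4 TPM in medulla, 1.72 TPM in putamen and 4.86 TPM in cortex, also highest in medulla. Glra2, the alpha subunit known as the main form of the developing brain, was at 12.4 TPM in medulla, 10.5 TPM in putamen and 4.19 TPM in cortex, and so differed little between medulla and putamen. Glra1 thus made up 82.9% of the listed alpha subunit RNA in medulla (81.9 to 83.8), whereas Glra2 led in putamen with 65.6% (61.9 to 69.3) and Glra3 and Glra2 shared cortex with 51.7% and 44.6%. Glrb, the beta subunit through which gephyrin anchors the receptor, differed far less, with 238 TPM in medulla, 125 TPM in putamen and 207 TPM in cortex. Its level was 1.64 times the summed alpha subunits in medulla, 7.86 times in putamen and 22 times in cortex.

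The putamen library also held low levels of hindbrain RNA. Hoxb5, a hindbrain and spinal patterning gene, was at 155 TPM in medulla, 1.66 TPM in putamen and 0.03 TPM in cortex, and Slc6a5, the glycine transporter of glycine-releasing neurons, at 130, 5.69 and 0.1 TPM in the same order. The 6 hindbrain genes in putamen stood at 1.07% to 4.37% of their medulla level, and Glra1 stood at 3.13% of its medulla level, inside that range. Glra3 in putamen stood at 13.9% of its medulla level, above the range. The part of hindbrain RNA in the putamen level of Glra1 was not tested.

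Among AMPA receptor subunits, which carry fast excitation, Gria2 and Gria4 stood in opposite orders in medulla and in the forebrain libraries. Gria2, whose edited product makes AMPA receptors impermeable to calcium, was at 58.7 TPM in medulla, 232 TPM in putamen and 206 TPM in cortex, 3.94-fold lower in medulla than in putamen (3.84 to 4.05) and 3.51-fold lower than in cortex (3.42 to 3.60). Gria4, a subunit with fast kinetics, was at 113 TPM in medulla, 41.8 TPM in putamen and 72.5 TPM in cortex. Medulla was the only 1 of the 3 libraries in which Gria4 exceeded Gria2, by a ratio of 1.93 (1.87 to 1.99), while Gria2 exceeded Gria4 by 5.54 in putamen and 2.84 in cortex. Gria2 made up 18.9% of AMPA subunit RNA in medulla (18.5 to 19.3), 44.6% in putamen (44.1 to 45.0) and 42.4% in cortex (42.0 to 42.8). Gria1, the subunit known for activity-dependent insertion at synapses, was at 95.8 TPM in medulla, 171 TPM in putamen and 102 TPM in cortex, a span of less than 2-fold that was not called. Gria3 was at 42.95 TPM in medulla, 74.9 TPM in putamen and 106 TPM in cortex.

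NMDA receptors pair the obligatory GluN1 subunit with GluN2 subunits, which fix channel kinetics and magnesium block. Grin1 differed by less than 2-fold (204 TPM in medulla, 327 TPM in putamen and 367 TPM in cortex), while its partners differed more. Grin2b, the GluN2 subunit that prevails early in forebrain life, was at 4.87 TPM in medulla, 30.9 TPM in putamen and 35.3 TPM in cortex, 7.25-fold lower in medulla than in cortex (6.70 to 7.85). Grin2a, which joins later in forebrain development, was at 10.4 TPM in medulla, 18.6 TPM in putamen and 51.5 TPM in cortex, and was called high in cortex alone, although under pan-neuronal scaling its difference between putamen and cortex turned to 0.03 (log2). Its ratio to Grin2b was 2.14 in medulla, 0.601 in putamen and 1.46 in cortex, so the forebrain libraries differed in which of the pair was higher.

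Grin2d, a subunit of slow receptors with weak magnesium block, ran the other way, with 17.6 TPM in medulla, 4.02 TPM in putamen and 9.21 TPM in cortex, and was low in putamen alone, an order that pan-neuronal scaling turned round between putamen and cortex (0.26, log2). It held 32.2% of listed GluN2 RNA in medulla, 4.77% in putamen and 7.47% in cortex. Grin3a, a GluN3 subunit that lowers calcium flux, was at 22.3 TPM in medulla, 6.48 TPM in putamen and 9.73 TPM in cortex and was called high in medulla alone, a call that ended under TMM scaling (0.96 against cortex, log2) and under pan-neuronal scaling (0.71 against putamen). Grin2c, best known from cerebellar granule cells, was at 21.7, 30.8 and 27.3 TPM in medulla, putamen and cortex and was not called. Antisense genes share 9.66% of the exonic bases of Grin2d and 13.5% of those of Grin1 in GENCODE M21, and since stranded counting is not stated, reads of the antisense partners cannot be told apart from theirs.

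**Figure D2:**
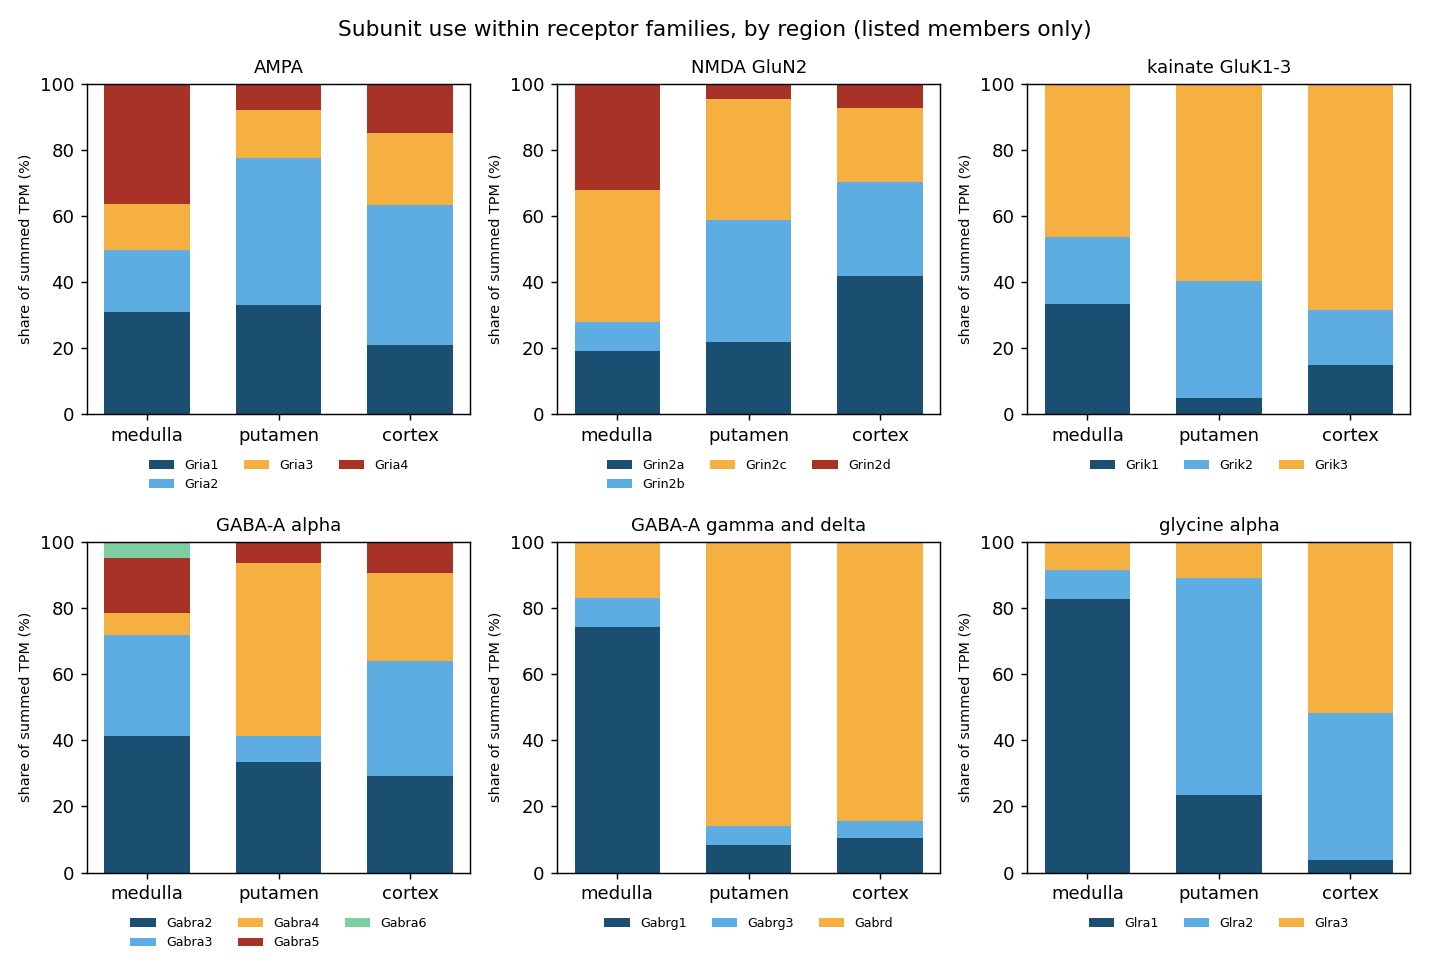
Share of each subunit in the summed TPM of the listed members of its family, in percent, for medulla, putamen and cortex (1 library each). Gria4, Grin2d, Gabrg1 and Glra1 take larger shares in medulla, and Gabra4 takes 52.5% of the listed GABA-A alpha RNA in putamen.

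Kainate receptors modulate release and excitability, and need a GluK1 to GluK3 subunit to which GluK4 or GluK5 can be added. Grik2 was high in putamen alone, with 7.37 TPM in medulla, 21.3 TPM in putamen and 7.40 TPM in cortex, where the medulla and cortex intervals overlap (7.0 to 7.75 and 7.04 to 7.77). Grik3 led the GluK1 to GluK3 group in every region, with 16.9 TPM in medulla, 35.8 TPM in putamen and 30.6 TPM in cortex. Grik1 was at 12.1 TPM in medulla, 3.06 TPM in putamen and 6.74 TPM in cortex, and its share of that group was 33.3%, 5.09% and 15.1%, in the same order. Grik5, the high-affinity partner, was at 59.4 TPM in medulla, 212 TPM in putamen and 170 TPM in cortex. Its relative Grik4 was at 19.9 TPM in medulla, 8.37 TPM in putamen and 16.5 TPM in cortex, so the 2 partner genes ran in opposite directions between medulla and putamen.

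Metabotropic glutamate receptors act through G proteins. Grm5, the member of group I on the list, which drives calcium release after synaptic activity, was high in putamen alone, with 26.3 TPM in medulla, 112 TPM in putamen and 47.0 TPM in cortex. Grm4, a presynaptic autoreceptor of group III, was likewise high in putamen alone, at 30.4 TPM in medulla, 64.1 TPM in putamen and 20.2 TPM in cortex. Grm2, an inhibitory group II receptor, was high in cortex alone: 5.06 TPM in medulla, 1.64 TPM in putamen and 37.9 TPM in cortex, 23.1-fold lower in putamen than in cortex (18.8 to 28.6). An antisense gene shares 9.6% of its exonic bases. The second group II gene, Grm3, was at 34.5 TPM in medulla, 83.1 TPM in putamen and 79.5 TPM in cortex. Grm7 (20.0, 25.5 and 23.7 TPM in medulla, putamen and cortex) and Grm8 (10.1, 10.0 and 8.96 TPM) were nearly level across regions.

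GABA-A receptors are chloride channels in which the alpha subunit sets affinity for GABA and benzodiazepines and the delta subunit marks receptors outside synapses that carry tonic inhibition. Gabra4, the alpha subunit that commonly pairs with delta in the forebrain, was at 17.3 TPM in medulla, 147.9 TPM in putamen and 73.1 TPM in cortex, with putamen 2.02-fold above cortex and so just past the limit, which it missed under TMM scaling (0.88, log2). Gabrd, the delta subunit, followed the same order, with 6.68 TPM in medulla, 167 TPM in putamen and 107 TPM in cortex, 25.0-fold lower in medulla than in putamen (22 to 28.6) and 16-fold lower than in cortex (14.0 to 18.3). Both were low in medulla alone, among 7 of the 37 members (Gria2, Grin2b, Grik5, Grm3, Gabra4, Gabrb2 and Gabrd), against 4.2% of all genes. Gabra4 held 6.46% of listed alpha RNA in medulla, 52.5% in putamen and 26.6% in cortex.

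The other listed alpha subunits were not low in medulla. Gabra2 was at 110 TPM in medulla, 94.3 TPM in putamen and 80.5 TPM in cortex, and led the listed alpha genes in medulla with 41.2%. Gabra3, an X-linked gene, was at 82.0 TPM in medulla, 21.8 TPM in putamen and 95.2 TPM in cortex, and was low in putamen alone, 4.37-fold below cortex (4.13 to 4.63). Gabra5, a subunit best known from hippocampal tonic inhibition, was at 44.5 TPM in medulla, 17.5 TPM in putamen and 25.8 TPM in cortex. Gabrb2 was high in cortex alone, with 30.7 TPM in medulla, 63.2 TPM in putamen and 134 TPM in cortex, although pan-neuronal scaling turned the difference between putamen and cortex to 0.41 (log2), whereas Gabrb1 was nearly level at 25.4, 31.8 and 29.5 TPM. Gabrg1 was at 29.4 TPM in medulla, 16.3 TPM in putamen and 13.4 TPM in cortex, and Gabrg3 at 3.45, 11.3 and 6.20 TPM in the same order.

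Gabra6, the alpha subunit known from cerebellar granule cells, was at 13.4 TPM in medulla (629 reads, 12.3 to 14.4 TPM), 0.12 TPM in putamen (5 reads) and 0.02 TPM in cortex (1 read). Its ratio was 111-fold between medulla and putamen (47.4 to 344) and 668-fold between medulla and cortex, with an interval of 119 to 26400 that 1 read in cortex leaves wide. Genes of cerebellar granule and Purkinje cells were also present: all 6 on the list were above 1 TPM in medulla, Neurod1 being higher still in cortex, and their sum was 118 TPM in medulla, 4.7 TPM in putamen and 12.5 TPM in cortex. Cbln3, a granule cell gene, was at 11.1 TPM in medulla, 0.33 TPM in putamen and 0.17 TPM in cortex, and Pcp2, a Purkinje cell gene, at 26.5, 0.15 and 0.12 TPM. The part of cerebellar RNA in the medulla level of Gabra6 was not tested.

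GABA-B receptors are metabotropic and need both subunits, Gabbr1 to bind GABA and Gabbr2 to reach the surface and couple to G proteins. Gabbr1 was at 276 TPM in medulla, 396 TPM in putamen and 380 TPM in cortex, a span of less than 2-fold. Gabbr2 was at 75.9 TPM in medulla, 32.3 TPM in putamen and 211 TPM in cortex, low in putamen alone and high in cortex alone, 6.52-fold lower in putamen than in cortex (6.24 to 6.81). The ratio of Gabbr1 to Gabbr2 was therefore 3.63 in medulla (3.53 to 3.74), 12.3 in putamen (11.7 to 12.8) and 1.81 in cortex (1.77 to 1.84). Neither single-region call of Gabbr2 held under pan-neuronal scaling, where its difference between medulla and cortex was -0.99 (log2).

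**Figure D3:**
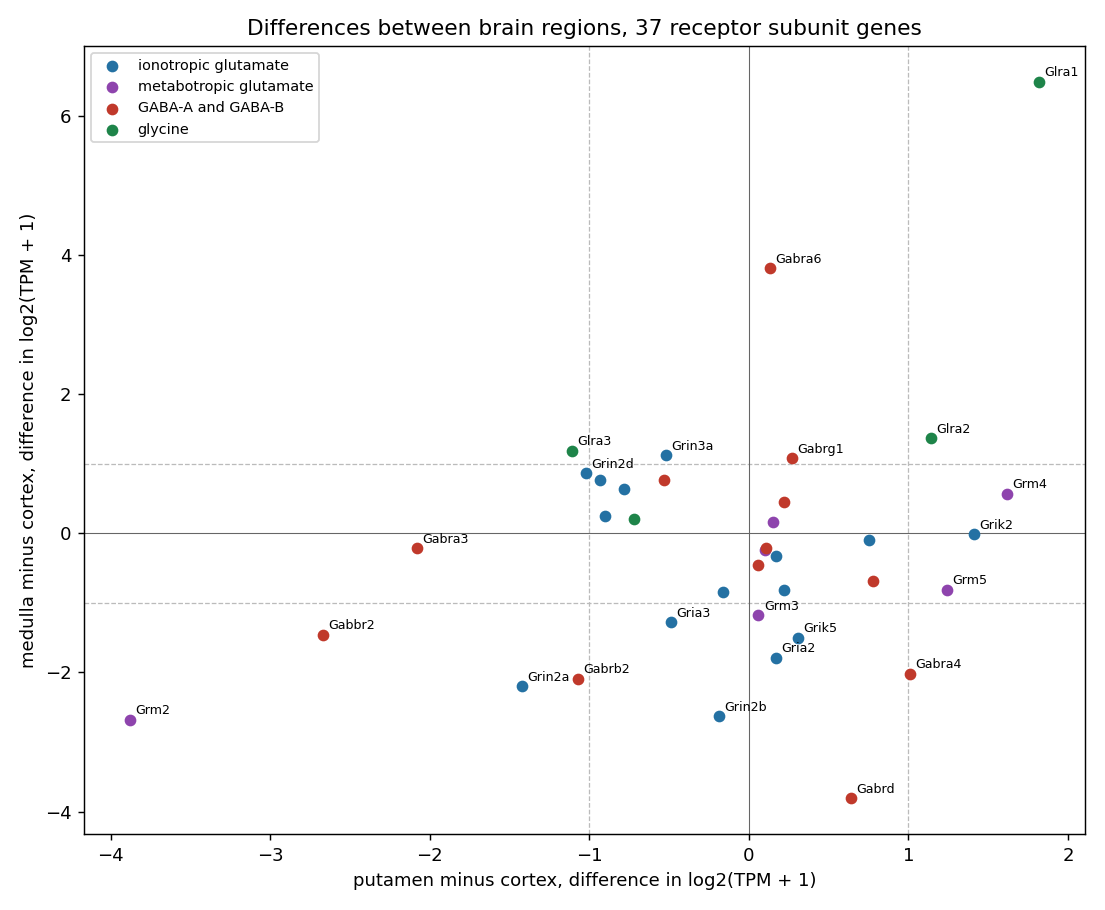
Difference in log2(TPM + 1) for each receptor subunit gene, medulla minus cortex (vertical) against putamen minus cortex (horizontal). Colours mark receptor class: ionotropic glutamate, metabotropic glutamate, GABA-A with GABA-B, and glycine. Dashed lines mark a difference of 1. Glra1 (6.49) and Gabra6 (3.81) lie highest and Gabrd (-3.81) lowest on the vertical axis, and Grm2 (-3.88) and Gabbr2 (-2.67) lie farthest left. The axes share the cortex library.

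Counted by the rule of a single high region, 4 members were high in medulla alone (Grin3a, Gabra6, Glra1 and Glra3), 4 in putamen alone (Grik2, Grm4, Grm5 and Gabra4) and 4 in cortex alone (Grin2a, Grm2, Gabrb2 and Gabbr2). Over all genes the rule called 5.49%, 4.26% and 2.89%. Grin2d, Grm2, Gabra3 and Gabbr2 were low in putamen alone, where the rule called 2.49% of genes, and Glra2 was low in cortex alone, where it called 1.31%. Under pan-neuronal scaling Grm2 (0.47, log2) and Gabbr2 (0.2) no longer passed the limit between medulla and putamen, and Gabra3 (-0.62) no longer between putamen and cortex, so none of these 3 was then low in putamen alone. Between medulla and cortex, Gria3 (-0.81), Grm3 (-0.71) and Gabbr2 (-0.99) no longer passed, so Gabbr2 was then not high in cortex alone either. Gria4, Grin2d, Grik1, Grik4 and Gabra5 were highest in medulla and called against putamen, without reaching the limit against cortex.

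Genes that anchor or assist these receptors were read from a list of 42 that were present. Of these 16 were low in medulla alone, against the 4.2% of all genes given above, and their median difference in log2(TPM + 1) was -0.99 between medulla and cortex and -0.87 between medulla and putamen, beside 0.04 for all genes in both comparisons. They included Dlg4, the main scaffold of excitatory synapses (PSD-95), at 234 TPM in medulla, 771 TPM in putamen and 714 TPM in cortex, and Cnih2, an AMPA receptor auxiliary subunit, at 89.7, 511 and 300 TPM, both chosen for mention after their values were seen. High in medulla alone were Homer3, a scaffold of group I receptors (25.1 TPM in medulla, 11.1 TPM in putamen and 8.42 TPM in cortex), and Slc12a2, a chloride importer (87.8, 33.5 and 30.9 TPM). High in putamen alone were Cacng4, an AMPA auxiliary subunit (35.5 TPM in medulla, 101.02 TPM in putamen and 31.1 TPM in cortex), and Neto2, a kainate auxiliary subunit (26.9, 79.5 and 37.4 TPM). In cortex alone 7 were high: Shank1, Shank2, Homer2, Cnih3, Nptx1, Nptxr and Camk2a. The largest level among them was that of Camk2a, the kinase of synaptic plasticity, at 98.8 TPM in medulla, 1202 TPM in putamen and 2453 TPM in cortex. The same rule called 5.49% of all genes high in medulla alone, 4.26% in putamen alone and 2.89% in cortex alone.

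The listed GABA-A genes include neighbours in the genome, some with like and some with unlike orders of level across regions. On chromosome 5 Gabrg1 (70751047 to 70842617), Gabra2 (70958392 to 71095849), Gabra4 (71569734 to 71658308) and Gabrb1 (71657921 to 72149572) follow each other. Gabrg1 and Gabra2 were both highest in medulla and lowest in cortex, Gabra4 was highest in putamen, and Gabrb1 was nearly level. Gabra4 and Gabrb1 start towards each other on opposite strands and share 46 exonic bases in GENCODE M21, 0.756% of those of Gabra4. On chromosome 11 Gabra6 (42306437 to 42321072) lies beside Gabrb2 (42419515 to 42632591). Gabra6 was read almost only in medulla, and Gabrb2 was highest in cortex.

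Start regions from RefSeq (GRCm38.p6, the mm10 build; 250 bases before to 50 after an annotated start) were found for 27 of the 37 genes, with several starts for some genes; GC and CG counts use the first and motif counts use any of them. Their median GC content was 63.7% and their median number of CG pairs 17, against 52.7% and 7 over 27025 genes. The regions below are shown because they belong to 2 pairs of neighbours with unlike patterns (Gabra4 and Gabrb1, Gabra6 and Gabrb2), to Gria2, which was low in medulla, to Grm2, which was high in cortex alone, and to the GABA-B pair, of which Gabbr1 exceeded 1 TPM in every lymphocyte library and Gabbr2 in none. They run 5′ to 3′ on the gene's strand. Capitals mark 4 motifs searched on both strands. These were the core of the RE1 element, bound by REST, a repressor of neuronal genes, then TTCAGCACC, the left arm of RE1, whose end overlaps the start of that core, then TATAAA, the TATA box, and GGGCGG, an SP1 site.
Gria2, chr3:80802786-80803085, minus strand: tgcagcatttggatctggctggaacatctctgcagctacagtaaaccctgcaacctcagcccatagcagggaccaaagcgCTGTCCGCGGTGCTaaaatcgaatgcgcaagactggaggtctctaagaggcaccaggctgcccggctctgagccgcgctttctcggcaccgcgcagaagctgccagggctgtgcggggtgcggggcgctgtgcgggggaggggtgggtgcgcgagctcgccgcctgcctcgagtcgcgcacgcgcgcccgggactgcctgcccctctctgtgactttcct
Grm2, chr9:106656060-106656359, minus strand: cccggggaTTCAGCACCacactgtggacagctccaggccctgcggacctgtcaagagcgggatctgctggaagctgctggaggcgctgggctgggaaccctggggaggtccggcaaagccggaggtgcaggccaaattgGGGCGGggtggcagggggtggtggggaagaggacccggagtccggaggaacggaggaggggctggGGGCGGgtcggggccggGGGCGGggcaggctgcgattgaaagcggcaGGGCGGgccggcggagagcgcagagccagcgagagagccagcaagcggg
Gabra4, chr5:71658259-71658558, minus strand: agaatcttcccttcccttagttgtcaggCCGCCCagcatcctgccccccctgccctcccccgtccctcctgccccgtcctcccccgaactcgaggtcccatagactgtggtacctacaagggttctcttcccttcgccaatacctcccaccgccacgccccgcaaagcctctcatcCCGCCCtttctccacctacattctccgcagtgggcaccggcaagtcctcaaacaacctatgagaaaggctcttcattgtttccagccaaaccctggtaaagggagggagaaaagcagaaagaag
Gabrb1, chr5:71657671-71657970, plus strand: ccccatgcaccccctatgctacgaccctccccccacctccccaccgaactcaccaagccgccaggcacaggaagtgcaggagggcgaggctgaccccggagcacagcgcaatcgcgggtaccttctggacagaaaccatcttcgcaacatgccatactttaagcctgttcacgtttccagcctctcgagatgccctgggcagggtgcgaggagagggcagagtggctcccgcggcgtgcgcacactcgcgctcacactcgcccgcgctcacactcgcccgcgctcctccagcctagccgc
Gabra6, chr11:42321023-42321322, minus strand: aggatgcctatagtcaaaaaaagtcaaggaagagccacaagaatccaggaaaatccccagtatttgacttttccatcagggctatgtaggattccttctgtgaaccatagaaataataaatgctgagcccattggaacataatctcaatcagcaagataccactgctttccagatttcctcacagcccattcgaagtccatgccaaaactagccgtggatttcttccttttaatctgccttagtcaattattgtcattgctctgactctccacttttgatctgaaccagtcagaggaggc
Gabrb2, chr11:42420190-42420489, plus strand: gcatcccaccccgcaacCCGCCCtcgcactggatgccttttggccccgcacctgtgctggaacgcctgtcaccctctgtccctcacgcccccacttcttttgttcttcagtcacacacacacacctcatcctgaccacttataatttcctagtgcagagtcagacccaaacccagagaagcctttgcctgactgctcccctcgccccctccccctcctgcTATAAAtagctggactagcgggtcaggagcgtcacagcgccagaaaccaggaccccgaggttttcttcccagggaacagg
Gabbr1, chr17:37045716-37046015, plus strand: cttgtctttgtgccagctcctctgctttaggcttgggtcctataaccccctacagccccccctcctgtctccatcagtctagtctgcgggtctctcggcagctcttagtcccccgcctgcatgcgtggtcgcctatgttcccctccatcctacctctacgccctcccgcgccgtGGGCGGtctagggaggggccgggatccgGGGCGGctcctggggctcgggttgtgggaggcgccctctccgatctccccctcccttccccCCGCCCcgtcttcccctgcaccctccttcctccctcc
Gabbr2, chr4:46991665-46991964, minus strand: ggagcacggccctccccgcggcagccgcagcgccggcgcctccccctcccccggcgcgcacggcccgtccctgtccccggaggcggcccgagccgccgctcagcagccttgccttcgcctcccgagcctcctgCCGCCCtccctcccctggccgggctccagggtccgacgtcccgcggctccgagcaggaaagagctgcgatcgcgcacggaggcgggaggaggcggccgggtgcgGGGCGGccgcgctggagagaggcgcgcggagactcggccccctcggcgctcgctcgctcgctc

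The Gria2 region holds the RE1 core, on the opposite strand, as do 16 of 27025 genes (0.0592%). The Grm2 region holds the left arm, as do 0.433% of genes, and no other of the 27 members holds either motif. GGGCGG is in the regions of 18 of the 27 members, against 38.2% of all genes, and TATAAA in those of 3, against 15.7%. The Gabra6 region holds none of the 4 motifs and has 2 CG pairs and a GC content of 42.0%, against 11 and 59.0% for that of its neighbour Gabrb2. These matches are descriptions of the letters and not of binding.

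Outside the brain most of the set was close to 0. In all 19 non-brain libraries 30 of the 37 genes stayed under 1 TPM, and the other 7 were Gabbr1, Grik5, Grin2d, Gria3, Grik3, Gabra3 and Grm4. For 36 members the highest non-brain level lay below the lowest brain level, as it did for 20.4% of genes above 0 in any library. The exception was Grin2d, at 4.02 to 17.6 TPM in brain and up to 6.06 TPM, in basophils, outside it. For Gabra6, counted among the 36, the order rests on 0.02 TPM in cortex (1 read) and 0.01 TPM in ConA-activated cells (3 reads), both at the floor.

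Gabbr1 was read in every non-brain library. It was at 276 to 396 TPM in brain, 156 TPM in basophils, 18.7 to 36.9 TPM in the 9 CD4 T libraries, 3.11 to 32.3 TPM in the 7 primary B libraries, 3.61 TPM in CH12 and 9.97 TPM in back skin. Within B cells it was 32.3 TPM in the splenic library, 29.9 TPM with LPS+IL4 and 29.7 TPM with aCD40+IL4, and 11.4 TPM or less with the other 4 stimuli, a difference that was not tested. Its partner Gabbr2 was at 0.01 TPM in basophils, at most 0.03 TPM in CD4 T cells and at most 0.04 TPM in primary B cells, and reached 0.81 TPM in CH12.

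Grik5 was also read in all 19, at 59.4 to 212 TPM in brain, 9.33 TPM in basophils, 7.30 to 56.9 TPM in CD4 T cells, 1.37 to 10.8 TPM in primary B cells, 5.28 TPM in CH12 and 3.86 TPM in back skin. Among the T cells it was 49.2 TPM in Tfr and 56.9 TPM in Tfr MUT, 35.9 TPM in Tfh and 24.4 TPM in Tfh Mut, 21.3 TPM in ConA-activated cells, 12.8 and 11.7 TPM in non-Tfh and non-Tfh MUT, and 7.95 and 7.30 TPM in CD4+ and CD4+ MUT cells. The Tfr libraries were thus the highest and the CD4+ libraries the lowest, with the medulla level just above that of Tfr MUT. None of the GluK1 to GluK3 genes that Grik5 needs as partners in neurons reached 1 TPM in a lymphocyte library.

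Grin2d reached 1 TPM in 8 non-brain libraries: basophils (6.06 TPM), CH12 (1.8 TPM) and 6 of the CD4 T libraries (up to 2.36 TPM). The obligatory Grin1 stayed at or under 0.65 TPM outside the brain. Gria3 was at 42.95 to 106 TPM in brain, 6.08 TPM in basophils and 0.83 TPM in back skin, and at most 0.15 TPM in the lymphocytes. Back skin alone outside the brain held Grik3 (9.51 TPM), Gabra3 (2.95 TPM) and Grm4 (1.53 TPM) above 1 TPM.

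**Figure D4:**
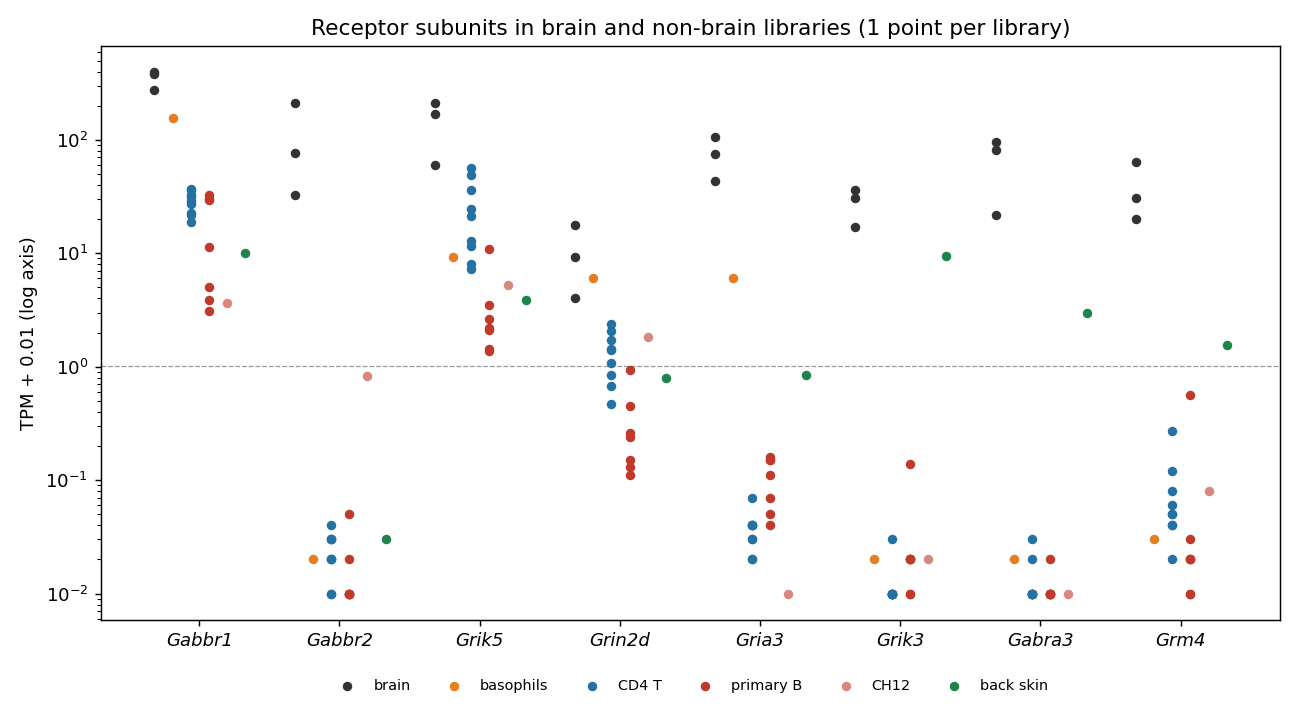
Level of the 7 receptor genes that reached 1 TPM outside the brain, and of Gabbr2, as TPM + 0.01 on a log axis, with 1 point per library for brain (3), basophils (1), CD4 T cells (9), primary B cells (7), CH12 (1) and back skin (1); the dashed line marks 1 TPM. Gabbr1 and Grik5 lie above the line in every library, while Gabbr2 does so in brain only.

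The 3 brain libraries were also set against the 19 others in edgeR's quasi-likelihood test, in which regions and cell types stand in for replicates, so that p-values measure the spread between them and not between animals. Of the 37 members 36 passed the filter on low counts (Gabra6 did not) and 36 were higher in brain at an adjusted p under 0.05, where 27.0% of all 16123 genes tested were higher and 26.7% lower. A member near 0 outside the brain passed the filter only through the brain libraries and so had to differ, and nothing is read from the count. Values are therefore given only for 3 genes that reached 1 TPM in 8 or more non-brain libraries. Gabbr1 was higher in brain by a log2 fold change of 3.24 ± 0.66 (SE, edgeR adjusted p = 0.000304) and Grik5 by 3.13 ± 0.73 (edgeR adjusted p = 0.00105). Grin2d was higher by 2.76 ± 0.75 (edgeR adjusted p = 0.00392), a call that was lost without the medulla library (edgeR adjusted p = 0.0715).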

How the data were processed

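Poly(A) RNA of 22 mouse libraries was sequenced for 50 cycles, per the labels' protocols. Per the file headers each deposited table holds, for 24911 genes, an expected count (estimated reads, deposited without normalization), a TPM and an FPKM scaled by the authors (FPKM was not used), and a length and an effective length, both deposited as other values in bases. CASAVA 1.8.2, STAR, RSEM and bedtools with mm10 are named in the submitters' processing notes, without roles or settings. Of the expected counts above 0, 86.1% were whole (within 1e-06), and fractional ones were rounded for the count tests. In 4 libraries (CH12, ConA, splenic B and B with LPS+IL4) the length minus effective length was 49.0, against 48.56 or 48.57 in the others; no member was at 0 in those 4 and present in all others.

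Groups came from the labels. The members and gene lists were chosen with earlier results of these data known. Region contrasts used log2(TPM + 1), a difference of at least 1 and at least 5 TPM. As alternatives TPM was rescaled by TMM factors or by the median ratio of the 7 pan-neuronal genes. Counting intervals are exact (Poisson for levels; Clopper-Pearson for shares and ratios, scaled to TPM). Brain was set against non-brain with edgeR 4.0.16 in R 4.3.3 (filterByExpr, TMM, Benjamini-Hochberg over all genes tested, threshold 0.05), the SE being the fold change over the root of the F statistic, and with DESeq2 1.42.0 and limma 3.58.1 as alternatives. The fit was tested on simulated data. It recovered 38% of 100 genes raised 4-fold in brain and 63% of 100 raised 16-fold, with 4 false calls. The simulation raised only these genes, lowered none, and gave each other gene 1 mean in all libraries. In the real comparison 27.0% of genes were called higher and 26.7% lower. The false calls are therefore not an error rate for the real comparison. Named genes are all 37 members, genes of the list of 43 receptor-associated genes that were high in a single region, and markers; Dlg4 and Cnih2 were added after their values were seen. Positions are RefSeq's and exon overlaps GENCODE M21's, both on the mm10 assembly. Tables and figures used pandas 2.3.3, scipy 1.17.1 and matplotlib 3.10.9. Replicates were not available within any region.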

Additional observations from a re-analysis of the deposited data

How the results depend on the processing

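No paired analysis was possible because each group has 1 library and the labels give no replicate numbers. Each count is followed by the share of all genes called under the same setting. With a limit of 4-fold, 2 members were higher (2.31%) and 6 lower (2.89%) in medulla than in cortex, 0 higher (2.86%) and 3 lower (1.9%) in putamen than in cortex, and 3 higher (2.52%) and 4 lower (4.01%) in medulla than in putamen, with 2 high in medulla alone (1.35%), 0 in putamen alone (1.82%) and 1 in cortex alone (0.764%). Scaling to the pan-neuronal genes gave 11 members higher (17.9%) and 8 lower (4.9%) in medulla than in cortex. It gave 22 higher (83.4%) and 2 lower (1.0%) in putamen than in cortex. Between medulla and putamen 4 were higher (2.66%) and 20 lower (48.0%) in medulla. By the same scaling 17 were high in putamen alone (44.4%) and 1 in cortex alone (0.687%). TMM scaling ended the calls of Grin3a (0.96) and Gabrg1 (0.91) in medulla over cortex and of Gabra4 (0.88) in putamen over cortex, leaving 3 members high in medulla alone (4.49%) and 3 in putamen alone (3.91%). Pan-neuronal scaling reversed putamen over cortex for Grin2a (0.03), Grin2d (0.26) and Gabrb2 (0.41). These shifts come from the scaling factors themselves (1.137 in medulla, 0.558 in putamen and 1.577 in cortex).

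Shares from expected counts, which favour long transcripts, were for Gria2 24.1% in medulla, 51.5% in putamen and 51.1% in cortex, for Gria4 28.6%, 5.42% and 9.3%, for Grin2b 13.8%, 48% and 39.6%, for Grin2d 28.8%, 3.63% and 6%, and for Gabra4 8.94%, 63.2% and 32.7%, in the same order of regions. Glra1 took 20.2% of the listed glycine alpha counts in putamen. Count shares turned round 3 of the orders within families stated in the results: Gabra3 (38.7%) led Gabra2 (33.2%) in medulla, Glra2 (62.6%) led Glra3 (33.4%) in cortex, and Grin2b (39.6%) exceeded Grin2a (34.6%) in cortex. Across families, expected counts put Grin1 (15838) above Glrb (13848) in medulla and Gria2 (28572) above Grin1 (24788) in putamen, unlike the most abundant members by TPM.

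Of the members tested in brain against the other libraries, 36 were higher in edgeR (27.0% of all genes). The number was 35 without medulla (22.2%), without putamen (22.1%), without cortex (22.4%) and in DESeq2 (34.6%). It was 36 without back skin (33.9%), an alternative chosen after seeing the data. As above, a member near 0 outside the brain had to differ, so nothing is read from these counts. The member not called was Grin2d without medulla, and Grik3 without putamen, without cortex and in DESeq2. The median log2 fold change of all genes was -0.16 with TMM, 0.16 with RLE size factors, 0.37 in DESeq2 and 0.32 in limma. The depth limits Gabra6 and Glra1 in cortex, which rest on 1 and 17 reads. The regions have no replicates, so no spread between animals is known.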
